A study of Mus musculus with 8 samples.

Results

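The genes described here are the stress program controlled by the transcription factor ATF4, together with the cytosolic tRNA synthetases that belong to its known targets. They were chosen by name from a list of 44 names. Because Mars and Mars1 name the same gene, the list came to 43 genes, of 20432 features present in both deposited tables. By role, 16 are stress transcription factors and feedback genes, 10 are enzymes of amino acid and one-carbon synthesis, 5 are amino acid transporters, and 12 are tRNA synthetases and the tRNA exporter Xpot. All 43 had a mean of at least 10 normalized counts in each table and entered every test. Values are normalized counts, that is, reads on a gene after division by a scaling factor of the sample.

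MC38, a mouse colon adenocarcinoma line, was profiled by RNA-seq in 8 samples, 2 for each of 4 groups. Wild-type control cells and DENR KO cells were each treated with IFNγ at 20 ng/ml for 4 h or left untreated. DENR KO cells had been made with Cas9 and a lentiviral sgRNA. Whether the samples numbered KO1 and KO2 carry different sgRNAs or are cultures of 1 line was not settled. The study also lists a control sgRNA, and whether the control samples here carried it was not settled either. The study describes the samples of a group as independent. With 2 samples per group, the p-values rest on each gene's own spread between samples, moderated toward the spread of features at a similar level. They speak for these samples only.

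DENR acts with MCT-1 to recycle ribosomal subunits and to let ribosomes restart translation after a short upstream open reading frame (uORF). ATF4 is the main effector of the integrated stress response. When a kinase such as PERK, GCN2 or PKR phosphorylates eIF2α, most translation slows, whereas Atf4 mRNA, which carries uORFs in its 5′ UTR, is translated more. The ATF4 protein then switches on genes for amino acid import, serine, glycine, asparagine and proline synthesis, and tRNA charging, as well as feedback genes such as Trib3 and Ppp1r15a. ATF4 pairs with C/EBP proteins on a composite DNA element called CARE. RNA-seq measures the mRNAs of this program, and neither ATF4 protein nor eIF2α phosphorylation.

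To show the element through which the members are thought to be controlled, the letters TGATGNAA, or TTNCATCA when read on the other strand, were searched on both strands of RefSeq promoter windows in GRCm38.p6. Each window held 300 bases, 250 before and 50 after an annotated start site. Windows were found for 36 of 43 members, and 14 of these (38.9%) held the element, against 4.51% of 27025 genes with a window. By group, it was found in 6 of 15 stress genes, 2 of 8 synthesis genes, 1 of 4 transporters and 5 of 9 synthetase genes. The stretches around the element are shown for 10 members, from all 4 groups, among those in which it lay before an annotated start site. They are written 5′ to 3′ on the strand of the gene, with the element in capitals.
Atf3, chr1:191183425-191183454, minus strand: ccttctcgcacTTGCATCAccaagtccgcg
Nupr1, chr7:126625562-126625591, minus strand: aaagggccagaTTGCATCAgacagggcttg
Chac1, chr2:119351038-119351067, plus strand: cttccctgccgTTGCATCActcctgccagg
Herpud1, chr8:94386306-94386335, plus strand: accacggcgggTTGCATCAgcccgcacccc
Vldlr, chr19:27216809-27216838, plus strand: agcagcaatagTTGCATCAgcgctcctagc
Asns, chr6:7693214-7693243, minus strand: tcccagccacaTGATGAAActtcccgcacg
Pycr1, chr11:120643833-120643862, minus strand: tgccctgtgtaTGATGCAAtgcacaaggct
Slc7a11, chr3:50443652-50443680, minus strand: cTGATGCAAacctggagaatTTGCATCAt
Gars, chr6:55037960-55037989, plus strand: tggctgcgctaTTTCATCAtgcaccgggcg
Tars, chr15:11399659-11399684, minus strand: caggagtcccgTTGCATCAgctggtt

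The 8 letters TTGCATCA occurred in 6 of these 10 stretches as the element itself and in Slc7a11 as the second of 2 copies in opposite orientation. In Atf3 and Nupr1 the first base of the element lay 110 bases before the start site, in Herpud1 112 bases before, and in Asns 23 bases before. In Vldlr it lay 200 bases before the more downstream of the annotated start sites. The window of the upstream start site of Vldlr held no match. Trib3, Iars and Yars held the element after the start site. The matches are a description of letters in these windows, and 19 of the 42 start sites of members were also start sites in GENCODE M21. Windows were not matched for Aldh1l2, Cars, Cth, Eif4ebp1, Lars, Nars and Slc7a5.

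The 5′ UTRs were read from 1 GENCODE M21 transcript per gene because restart after a uORF is the step in which DENR acts. Atf4 had a 5′ UTR of 594 nt with 3 upstream ATGs. The first opened a frame of 36 codons and the second a frame of 3 codons that ended 184 nt before the start codon, and the third opened a frame of 59 codons that overlapped the coding sequence. The short frame, at bases 399 to 410 of the transcript, is shown with its start and stop codons in capitals.
Atf4 short uORF: ATGgcgtatTAG

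An upstream ATG was present in 20 of 43 members (46.5%) and in 52.5% of 21613 protein-coding genes. A start codon followed directly by a stop codon was found in Cebpg and Ppp1r15a, the latter with 7 upstream ATGs, that is in 4.65% of members and 7.94% of genes. Atf5 had 2 upstream ATGs, of which 1 opened a frame overlapping the coding sequence, and the 2 upstream frames of Ddit3 shared their stop codon. Among the synthetase genes 4 of 12 had an upstream ATG.

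Denr mRNA was checked first. It measured 1438 and 1402 normalized counts in control and 946 and 957 in DENR KO cells with IFNγ, and 1448 and 1297 in control and 943 and 916 in DENR KO cells untreated. The KO means were 67.0% and 67.7% of control (limma, adjusted p = 8.2e-06 and 1.1e-04). Values were lower in 4 of 4 KO samples, and most of the mRNA signal remained at a locus edited by Cas9. In the study, the knockout in MC38 cells was checked on protein by western blot, which RNA-seq does not measure. Reads on genes ranged from 17369020 to 18403790 per sample. As for the identity of the cells, the epithelial markers Krt8, Krt18, Krt19 and Cdh1 were at or below 20.6 normalized counts where listed and Epcam was in neither table, whereas Vim measured 62697 to 74880. The leukocyte markers Ptprc, Cd3e and Itgam were absent or at most 3.06. One mesenchymal marker, Pdgfrb, was higher in DENR KO cells with IFNγ (log2 fold change 0.43, adjusted p = 0.00845).

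The members covered a wide range of levels (plot of levels per gene length). In untreated control cells, the level per kb of gene length was highest for Phgdh, the first enzyme of serine synthesis, at 3120 normalized counts per kb. Atf4 followed at 2846 and Nars at 2716. Within the stress genes, Atf4 was followed by Atf5 at 1751, Eif4ebp1 at 1163 and Cebpb at 1119 per kb, and the lowest were Sesn2 at 98.2, Atf3 at 80.0 and Stc2 at 43.9. Synthetase genes lay in a narrower band, from 318 (Cars) to 2716 (Nars) per kb. The lowest members were Cth, which makes cysteine from cystathionine, at 31.9, and Slc7a11, the cystine importer, at 21.1. Cth rested on 49 to 93 reads per sample, the fewest of any member. All members together took 0.644% to 0.661% of the reads in control samples and 0.606% to 0.619% in DENR KO samples.

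**Figure D1:**
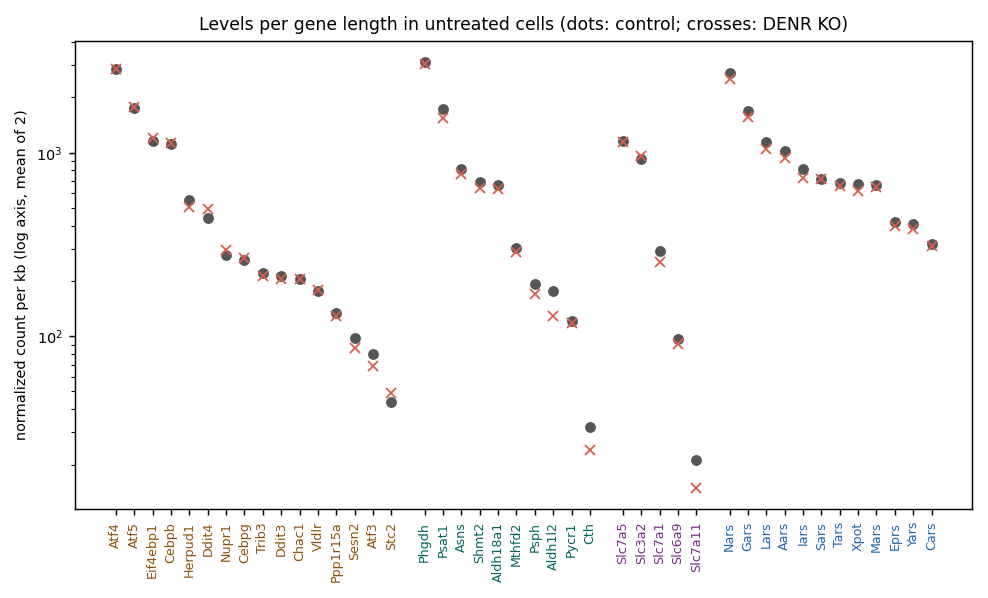
Normalized count per kb of gene length in untreated cells, on a log axis, for each member within its group, with the mean of 2 control samples as a dot and of 2 DENR KO samples as a cross. Members run from 21.1 (Slc7a11) to 3120 (Phgdh) per kb in control cells, and dots and crosses lie close together for most genes.

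The first comparison asked which members differed between DENR KO and control cells with IFNγ. Of 43 members, 4 passed the test (limma, adjusted p under 0.05 over all 13928 features), all lower in DENR KO cells. They were the stress factors Atf3 and Cebpb, the serine synthesis enzyme Psat1 and the folate enzyme Aldh1l2. This is 9.30% of members, against 2.25% of all features called lower. No member was called higher by limma, edgeR or DESeq2, against 1.8% of all features by limma. At an unadjusted p under 0.05, 19 were lower, where 899 of 13928 features were, and 1 was higher, where 970 were. The median log2 fold change, DENR KO over control, was −0.11 over the members and −0.0004 over all features, and 35 of 43 values were negative. In 29 of 43 members (67.4%) both KO samples lay below both control samples, against 20.8% of all features, and in 5 both lay above, against 21.1%.

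Untreated, 1 of 43 members passed, Aldh1l2, lower in DENR KO cells (2.33% of members, against 0.15% of all 13998 features called lower). None was called higher by limma, edgeR or DESeq2, against 0.429% of all features by limma. At an unadjusted p under 0.05, 9 were lower, where 524 of 13998 features were, and 0 were higher, where 771 were. The median was −0.07 over the members and 0.0019 over all features, and 31 of 43 values were negative. Both KO samples lay below both controls in 23 members (53.5%, against 19.6% of features) and above in 2, Atf4 and Ddit4 (against 20.4%). The untreated median depended on single control samples, being −0.04 without control replicate 1 and −0.12 without control replicate 2.

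The plot of members by sample shows both tables gene by gene. The tables share no sample, but control and KO samples carry the same numbers in both. Whether the same lines or cultures stand behind both tables was not settled, so the tables may not be independent. In 20 members (46.5%) the KO samples lay below the controls in both tables, compared with 6.33% of the 13642 features tested in both. These were 9 of 12 genes of the synthetase group, 7 of 10 synthesis genes, 2 of 5 transporters (Slc7a1 and Slc7a11) and 2 of 16 stress genes (Atf3 and Herpud1). Across genes, which are not independent replicates, the log2 fold changes of the 2 tables had a Pearson r of 0.57 for the 43 members and 0.19 for all features. The median standard error was 0.066 with IFNγ and 0.069 untreated over the members, against 0.101 and 0.103 over all features. Neither the shares nor r were compared with features matched for level or standard error.

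**Figure D2:**
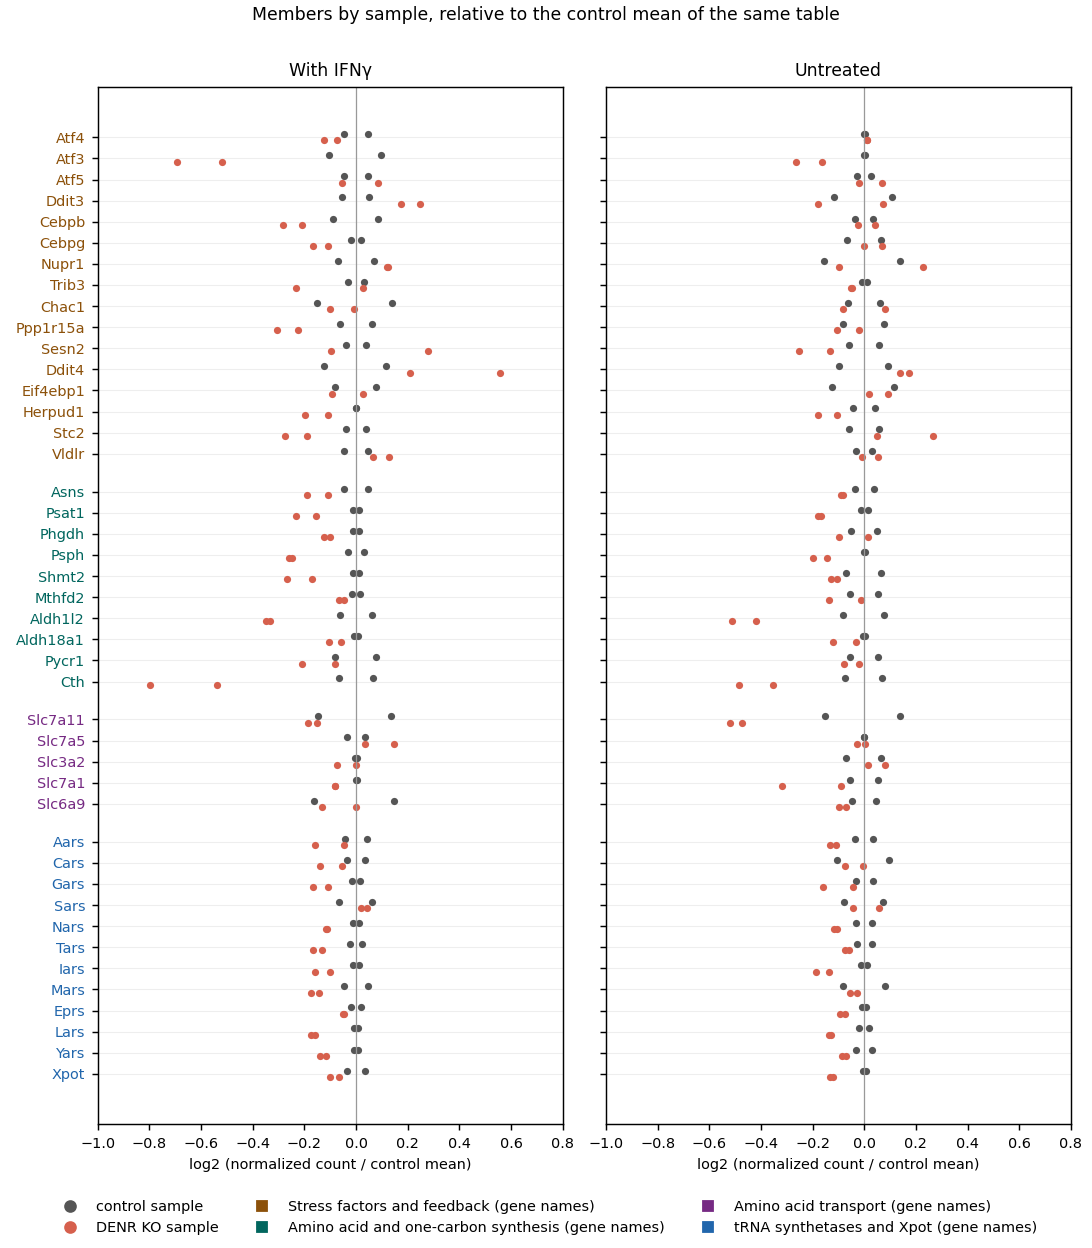
Each point is 1 sample, given as log2 of its normalized count over the control mean of the same table, with control samples in gray and DENR KO samples in red, for cells with IFNγ (left) and untreated (right). Synthesis and synthetase genes have their red points at or left of the gray ones in most rows, while stress genes lie on both sides of 0.

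Stress factors and feedback genes had values on both sides of 0. With IFNγ, 2 of 16 passed the test, both lower (12.5%, against 2.25% of all features called lower), and 14 did not. The median was −0.07, with values from −0.60 to 0.39. At an unadjusted p under 0.05, 5 were lower, where 899 of 13928 features were, and 1 was higher, where 970 were. Both KO samples lay below both controls in 7 of 16 (43.8%, against 20.8% of all features) and above in 4 (against 21.1%). Untreated, none of 16 passed by limma, edgeR or DESeq2, and the median was 0.01. None reached an unadjusted p under 0.05, where 524 of 13998 features were lower and 771 higher. Both KO samples lay below both controls in 4 of 16 untreated (25%, against 19.6%) and above in 2 (against 20.4%). The level of Atf4 itself did not pass either test. With IFNγ it measured 6957 and 7405 normalized counts in control and 6597 and 6826 in DENR KO cells (log2 fold change −0.10, 95% interval −0.21 to 0.02, adjusted p = 0.479). Untreated it measured 6706 and 6717 in control and 6753 and 6762 in DENR KO cells (log2 fold change 0.01, interval −0.11 to 0.13, adjusted p = 0.977). The KO samples with IFNγ thus lay just below the controls, and the 4 untreated samples ran from 6706 to 6762 normalized counts.

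Atf3 (chr1:191170296-191218039, minus strand), a stress-induced repressor and partner of other bZIP factors, showed the largest fold change among the members that passed. With IFNγ it measured 345 and 397 normalized counts in control and 259 and 230 in DENR KO cells, so that both KO samples lay below both controls. The log2 fold change was −0.60 (SE 0.119, adjusted p = 0.00264), or 65.8% of control, and it passed in every alternative setting tried for this comparison. Untreated, Atf3 measured 172 and 173 in control and 154 and 144 in DENR KO cells, also without overlap, but with a smaller log2 fold change of −0.21 (SE 0.154, adjusted p = 0.722).

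Cebpb (chr2:167688915-167690418, plus strand) encodes a C/EBP factor of the acute-phase and inflammatory response. It measured 2995 and 3379 in control and 2759 and 2620 in DENR KO cells with IFNγ (log2 fold change −0.24, SE 0.066, adjusted p = 0.0357). Untreated, the groups overlapped, with 1642 and 1725 in control and 1657 and 1732 in DENR KO cells (log2 fold change 0.01, adjusted p = 0.981). Its call with IFNγ was lost with edgeR (adjusted p = 0.0642), with DESeq2 (0.0662), without control replicate 2 (0.476) and without KO replicate 2 (0.191).

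The other factors of the response gave small values. Atf5, also controlled through uORFs, measured 3102 and 2910 in control and 3188 and 2893 in DENR KO cells with IFNγ, and 3556 and 3425 against 3445 and 3662 untreated. Its groups overlapped in both tables (log2 fold changes 0.02 and 0.03). Ddit3, which encodes the pro-apoptotic factor CHOP, measured 284 and 264 in control and 325 and 309 in DENR KO cells with IFNγ (log2 fold change 0.21, adjusted p = 0.455), the KO samples above the controls. Untreated, Ddit3 overlapped, with 391 and 335 against 321 and 382 (−0.05, adjusted p = 0.936). Cebpg, a dimer partner of ATF4, had log2 fold changes of −0.14 and 0.04 in the 2 tables, and the stress-response chromatin protein gene Nupr1 0.12 and 0.07.

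The feedback and effector genes Trib3, Chac1 and Ppp1r15a did not pass in either table. Trib3, a pseudokinase that inhibits ATF4 and CHOP activity, measured 544 and 522 in control and 543 and 453 in DENR KO cells with IFNγ, and 470 and 464 against 451 and 452 untreated. Chac1, a glutathione-degrading enzyme, measured 347 and 284 against 314 and 294 with IFNγ, and 348 and 319 against 353 and 315 untreated. The 95% intervals of the log2 fold change with IFNγ ran from −0.31 to 0.11 for Trib3 and from −0.30 to 0.20 for Chac1. Ppp1r15a, which encodes the GADD34 subunit of the eIF2α phosphatase, measured 414 and 451 in control and 370 and 350 in DENR KO cells with IFNγ, both KO samples below both controls. Its log2 fold change was −0.26 with IFNγ (SE 0.103, limma unadjusted p = 0.0177, adjusted p = 0.212) and −0.06 untreated.

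Ddit4 and Stc2 are described because of their values, outside the rule for naming genes. Ddit4 encodes REDD1, an inhibitor of mTORC1. With IFNγ it measured 540 and 458 in control and 735 and 576 in DENR KO cells, both KO samples above both controls (log2 fold change 0.39, SE 0.114, adjusted p = 0.0745). Untreated, the KO samples were also above, with 855 and 877 against 827 and 727 (log2 fold change 0.16, adjusted p = 0.588). Ddit4 was the one member called higher on leaving out a sample, without control replicate 1 and without KO replicate 2 with IFNγ. Stc2, a secreted glycoprotein, had log2 fold changes of −0.23 with IFNγ and 0.16 untreated, neither past the test. The remaining stress genes, Sesn2, Eif4ebp1, Herpud1 and Vldlr, lay between −0.15 and 0.10 with IFNγ and between −0.19 and 0.06 untreated, and none passed.

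**Figure D3:**
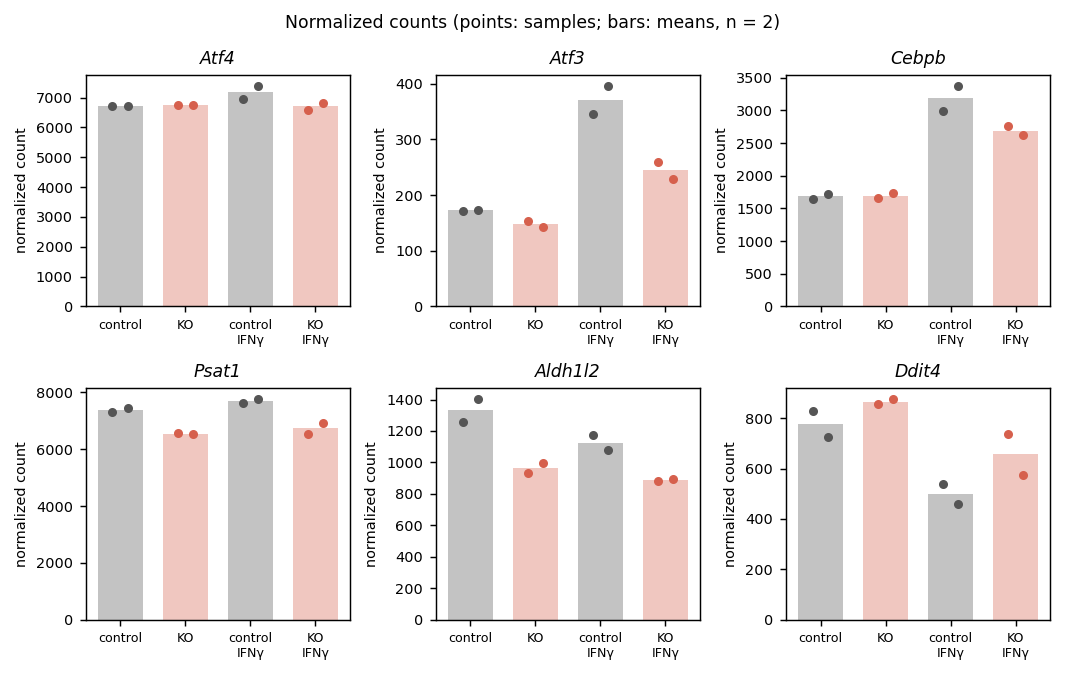
Normalized counts of 6 members in the 4 groups, with 1 point per sample and bars for the mean of 2 samples, on axes that start at 0. Atf4 is level across the groups, Atf3 and Cebpb are higher with IFNγ and then lower in DENR KO than in control cells, and Aldh1l2 is lower in DENR KO cells in both tables.

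All 10 genes of amino acid and one-carbon synthesis had a negative log2 fold change in both tables, against 29.9% of all features tested in both. With IFNγ, 2 of 10 passed the test, both lower (Psat1 and Aldh1l2, 20%, against 2.25% of all features called lower), and the median was −0.17. Untreated, 1 of 10 passed, lower (Aldh1l2, 10%, against 0.15% of all features called lower), and the median was −0.10. The KO samples lay below the controls without overlap in 9 of 10 genes with IFNγ (20.8% of all features) and in 7 of 10 untreated (19.6%).

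Aldh1l2 (chr10:83487450-83534140, minus strand), the mitochondrial formyl-tetrahydrofolate dehydrogenase, was the one member that passed in both tables. It measured 1172 and 1076 in control and 883 and 892 in DENR KO cells with IFNγ, and 1257 and 1404 in control and 932 and 994 in DENR KO cells untreated. In both tables every KO sample lay below every control. The log2 fold change was −0.34 with IFNγ (SE 0.076, adjusted p = 0.00845) and −0.46 untreated (SE 0.079, adjusted p = 0.00209), or 78.9% and 72.4% of control. Calls by edgeR and DESeq2 were the same in both tables. The call was lost without control replicate 1 with IFNγ (adjusted p = 0.0884) and without control replicate 2 untreated (adjusted p = 0.137). Another gene, D10Wsu102e, overlaps Aldh1l2 on the opposite strand with up to 1423 normalized counts, and the handling of strand is not given in the sources used here.

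The serine pathway runs from Phgdh through Psat1 and Psph. Psat1 (chr19:15904678-15947337, minus strand) measured 7639 and 7775 in control and 6555 and 6913 in DENR KO cells with IFNγ (log2 fold change −0.20, SE 0.054, adjusted p = 0.0392). Untreated it measured 7305 and 7445 against 6570 and 6522 (log2 fold change −0.17, SE 0.057, adjusted p = 0.253), a shift of similar size that did not pass. The call with IFNγ was lost with edgeR (adjusted p = 0.0722) and on leaving out any 1 of the 4 samples (adjusted p from 0.0527 to 0.45). Phgdh had values of −0.11 and −0.04, and Psph of −0.25 and −0.17, none past the test. Shmt2, which makes glycine from serine in mitochondria, reached −0.22 with IFNγ (adjusted p = 0.0578) and −0.12 untreated. Mthfd2, which follows it in one-carbon metabolism, reached −0.06 and −0.07.

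Asns, the asparagine synthetase and a standard readout of ATF4 and GCN2, measured 2187 and 2333 in control and 1980 and 2096 in DENR KO cells with IFNγ, and 2281 and 2167 against 2087 and 2098 untreated. The KO samples lay below the controls in both tables, with log2 fold changes of −0.15 (adjusted p = 0.299) and −0.09 (adjusted p = 0.728). The proline genes Aldh18a1 and Pycr1 had values of −0.08 and −0.14 with IFNγ and of −0.08 and −0.05 untreated. Cth, described because of its size of change, measured 79.9 and 87.6 in control and 48.2 and 57.6 in DENR KO cells with IFNγ, and 93.6 and 84.7 against 63.8 and 69.8 untreated. Its log2 fold changes of −0.66 (SE 0.221, adjusted p = 0.115) and −0.41 (SE 0.212, adjusted p = 0.571) did not pass, and it is the member with the fewest reads.

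None of the 5 amino acid transporters passed in either table by limma, edgeR or DESeq2, and their medians were −0.06 and −0.08. At an unadjusted p under 0.05, 2 were lower untreated, where 524 of 13998 features were, and 0 with IFNγ, where 899 of 13928 were. Slc7a11, the cystine/glutamate exchanger, measured 264 and 323 in control and 204 and 211 in DENR KO cells untreated, without overlap (log2 fold change −0.49, SE 0.133, adjusted p = 0.106). With IFNγ it measured 313 and 380 against 304 and 312 (log2 fold change −0.16, adjusted p = 0.625). The shared heavy chain Slc3a2 and its leucine-importing partner Slc7a5 had values of −0.04 and 0.09 with IFNγ and of 0.05 and −0.01 untreated. The arginine and lysine importer Slc7a1 reached −0.08 and −0.20, and the glycine transporter Slc6a9 −0.06 and −0.08.

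The 12 genes of the synthetase group encode enzymes that attach amino acids to their tRNAs and, in Xpot, a tRNA exporter. They had small and mostly negative log2 fold changes. No gene passed in either table by limma, edgeR or DESeq2, and 11 of 12 values were negative in each table, against 50.1% of all features with IFNγ and 49.5% untreated. At an unadjusted p under 0.05, 7 of 12 were lower with IFNγ, where 899 of 13928 features were, and 4 of 12 untreated, where 524 of 13998 were. The log2 fold changes ran from −0.17 (Lars) to 0.03 (Sars) with IFNγ and from −0.16 (Iars) to 0.01 (Sars) untreated, with medians of −0.12 and −0.09. With IFNγ the KO samples lay below the controls in 11 of 12, all but Sars (20.8% of all features), and untreated in 9 of 12, all but Sars, Cars and Mars (19.6%). Lars measured 4378 and 4335 in control and 3905 and 3858 in DENR KO cells with IFNγ (adjusted p = 0.117). Iars measured 4283 and 4349 against 3789 and 3923 untreated (adjusted p = 0.338). Nars and Gars, the highest of the group per kb, had values of −0.12 and −0.14 with IFNγ. Aars, Cars, Tars, Mars, Eprs, Yars and Xpot lay between −0.16 and −0.05 with IFNγ.

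**Figure D4:**
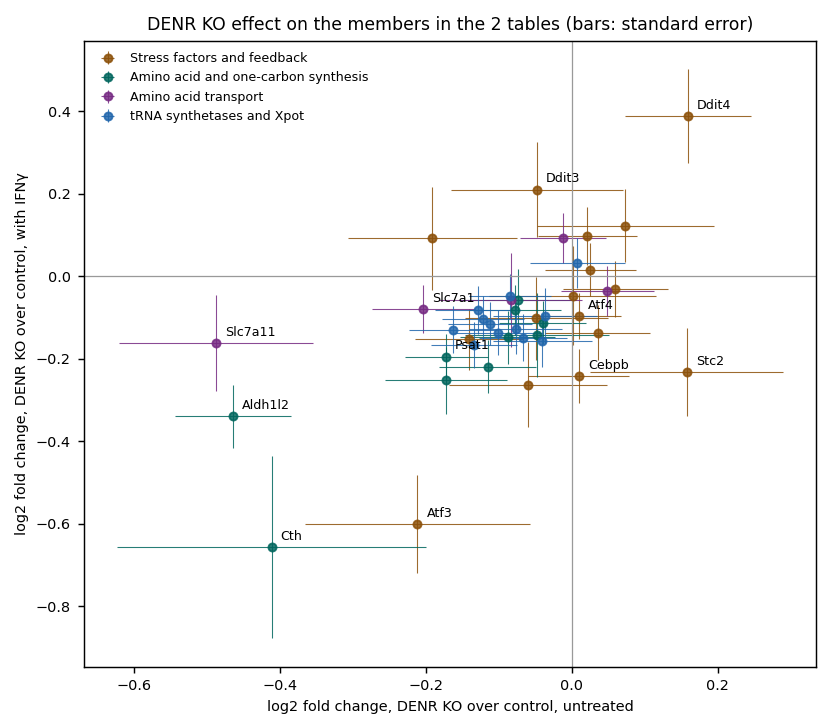
Effect of DENR KO on the 43 members, as log2 fold change against control, untreated on the horizontal axis and with IFNγ on the vertical axis, with standard errors as bars and colors for the 4 groups. Synthesis and synthetase genes cluster in the lower left, Aldh1l2, Cth and Slc7a11 lie farthest left, Atf3 and Cth lie lowest and Ddit4 lies highest, at 0.39.

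Genes of the same pathways outside the members were counted from lists. Among 14 genes for eIF2α kinases and for eIF2 and eIF2B subunits or their regulators, none passed untreated. With IFNγ 1 passed, lower in DENR KO cells (7.14%, against 2.25% of all features called lower). It was Eif2ak2, the interferon-inducible kinase PKR, with 1643 and 1685 in control and 1333 and 1363 in DENR KO cells (log2 fold change −0.30, SE 0.067, adjusted p = 0.00748). Its untreated value was −0.18 (adjusted p = 0.537), and its call with IFNγ was lost without KO replicate 1 (adjusted p = 0.0584). The amino acid sensor kinase GCN2 (Eif2ak4) had values of 0.07 and 0.13, and PERK (Eif2ak3) of −0.03 and 0.07. Of the 14 genes, both KO samples lay below both controls in 3 with IFNγ (21.4%, against 20.8% of all features). Untreated these were 5 (35.7%, against 19.6%). None of the 12 tested genes of the unfolded protein response passed in either table, and the medians were −0.08 and −0.04. At an unadjusted p under 0.05, 2 were lower with IFNγ, where 899 of 13928 features were, and 0 untreated, where 524 of 13998 were. With IFNγ 11 of 12 values were negative, and in 7 genes (58.3%) both KO samples lay below both controls, against 20.8% of all features. Untreated these were 8 and 5 genes (41.7%, against 19.6%). The chaperone Hspa5 had values of −0.08 in each table. Of 12 tested further targets of ATF4, none passed in either table, and the medians were −0.05 and −0.06. Values were negative in 8 of 12 with IFNγ and in 7 of 12 untreated. Both KO samples lay below both controls in 4 with IFNγ (33.3%, against 20.8% of all features) and in 2 untreated (16.7%, against 19.6%). At an unadjusted p under 0.05, 2 were higher with IFNγ, where 970 of 13928 features were, and 0 were lower. edgeR and DESeq2 also called none in these 2 lists.

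The other synthetases were counted by compartment. Of 9 cytosolic synthetase genes outside the members, 7 had negative values in each table, and the medians were −0.11 and −0.03. Both KO samples lay below both controls in 6 with IFNγ (66.7%, against 20.8% of all features) and in 3 untreated (33.3%, against 19.6%). With IFNγ 1 passed, lower in DENR KO cells (11.1%, against 2.25% of all features called lower). It was Wars, the tryptophanyl-tRNA synthetase, known as an interferon-inducible gene. Wars measured 13434 and 13516 in control and 7189 and 7219 in DENR KO cells with IFNγ (log2 fold change −0.90, SE 0.050, adjusted p = 1.8e-11). Untreated it measured 1452 and 1374 against 1489 and 1403 (log2 fold change 0.03, adjusted p = 0.926). None of the 17 mitochondrial synthetase genes passed in either table by limma, edgeR or DESeq2, and their medians were 0.01 and −0.01. At an unadjusted p under 0.05, 1 was lower untreated, where 524 of 13998 features were, and 0 with IFNγ, where 899 of 13928 were. Both KO samples lay below both controls in 1 of 17 with IFNγ (5.88%, against 20.8%) and in 4 untreated (23.5%, against 19.6%).

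An interaction term, fitted to all 8 samples, asked whether the effect of DENR KO differed with treatment, and in it the scale of each table cancels. No member passed by limma, edgeR or DESeq2, against 0.429% of 13998 features called lower and 0.0214% called higher by limma. At an unadjusted p under 0.05, 3 members had a more negative effect with IFNγ, where 454 of 13998 features did. Members with a more positive effect numbered 0, where 350 features had one. The 3 members were Atf3, Cebpb and Stc2. Their differences were −0.39 (SE 0.184, adjusted p = 0.855), −0.25 (SE 0.094, adjusted p = 0.558) and −0.39 (SE 0.164, adjusted p = 0.715). The median difference was −0.03 over the members, and −0.05, −0.07, 0.10 and −0.02 over the stress, synthesis, transport and synthetase genes. The larger number of calls with IFNγ thus came without a member whose effect was shown to differ between treatments. Among the pathway lists, Wars passed (difference −0.94, adjusted p = 6.9e-07).

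The level with IFNγ against untreated is a description, because the tables were normalized separately. Over all features the median log2 ratio was −0.08 in control and in DENR KO cells, and member values are to be read against that shift. Atf3, Cebpb and Stc2 stood highest in control cells, with log2 ratios of 1.10, 0.92 and 0.73, against 0.71, 0.67 and 0.34 in DENR KO cells. Ddit4, Ddit3 and Vldlr stood lowest in control cells, at −0.64, −0.41 and −0.39, against −0.40, −0.15 and −0.31 in DENR KO cells. Atf4 gave 0.10 and −0.01. Slc7a11 gave 0.24 in control and 0.57 in DENR KO cells, where it stood above Stc2. The synthetase group stayed near the median of all features, at −0.06 and −0.07, with single genes from −0.26 to 0.07 in control cells, whereas Wars, outside the members, gave 3.25 and 2.32.

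**Figure D5:**
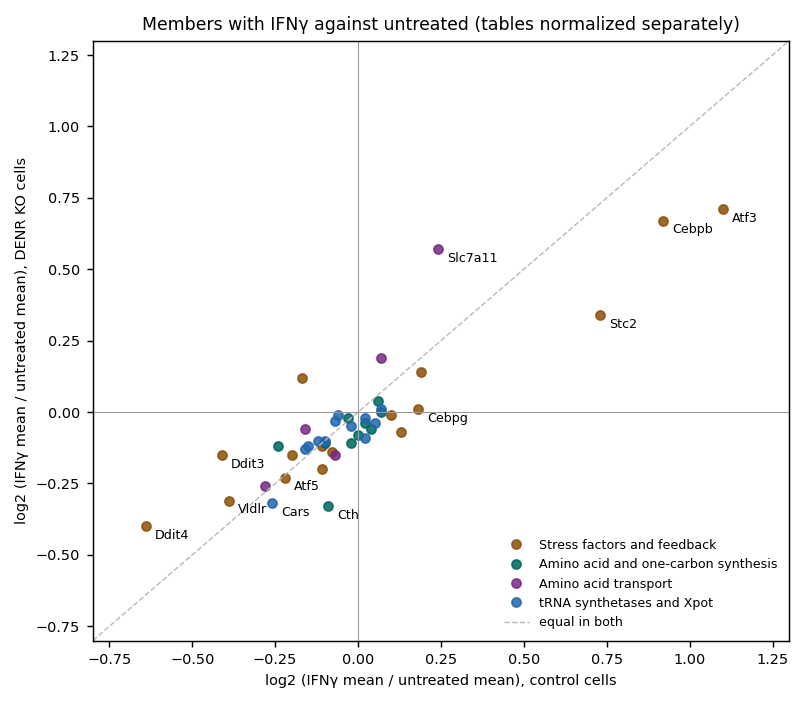
The log2 ratio of the mean with IFNγ to the mean without, for each member, in control cells (horizontal axis) and DENR KO cells (vertical axis), with a dashed line where both are equal. Atf3, Cebpb and Stc2 lie at the right and below the line, Ddit4 lies farthest left, and most other members lie near 0.

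Members with and without the CARE letters were set side by side as a description. The 14 members with the element had median log2 fold changes of −0.13 with IFNγ and −0.08 untreated, and 1 of them, Atf3, passed with IFNγ. The 22 members with a window and no match had medians of −0.08 and −0.05, and 2 of them, Cebpb and Psat1, passed. Several members share bases with a gene on the other strand, and reads of such pairs may have been divided in ways not known here. These are Ddit3 with Mars, Atf5 with Nup62, Cebpb with Tmem189, Psph with Cct6a, Slc6a9 with B4galt2 and Yars with C77080.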

How the data were processed

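RNA-seq was measured in 8 MC38 samples. Per the labels, the submitters' processing notes name HISAT2 2.0.5, StringTie 1.3.3b, featureCounts 1.5.0-p3 and DESeq2 1.20.0. The authors deposited 2 tables, 1 per treatment and each normalized separately, whose signal per gene and sample is a read count divided by a size factor, called a normalized count here. They also hold group means and the authors' own fold changes and p-values, which were not used, and gene lengths. In all samples, 100% of values were whole multiples of 1 read (within 0.01 read), so reads were recovered. The notes name mm9, but 41 of 43 members had exactly their GENCODE M21 (GRCm38) span. Strand handling is not given in the sources used here.

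Tests were planned for counts or for normalized values. Because the unit is normalized, limma 3.58.1 (R 4.3.3; trend, robust) was run on log2(value + 1), per table, over features with a mean of at least 10, with Benjamini-Hochberg adjustment over all of them. Fold changes are on that scale, which understates those of low genes. Intervals are 95%. A call is an adjusted p under 0.05. Alternatives were edgeR 4.0.16 and DESeq2 1.42.0 on recovered reads, other pseudocounts (0.5 and 5), no filter, centring on the sample median, leaving out each sample, a replicate block, all samples in 1 fit, and requiring a log2 fold change beyond 0.5. The tests were checked on simulated data. Replicates differed by more than counting noise in each group (chi-square per feature 3.49 to 5.90). Depth is given with the results and limits genes with few reads. Values per sample were given for members that passed and for Atf4, Atf3, Atf5, Ddit3, Trib3, Chac1 and Asns, and also for Ppp1r15a, Ddit4, Cth, Slc7a11, Lars and Iars, chosen after their values were seen. Members and lists were chosen with earlier results of these data known. Some items are not reported here.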

Additional observations from a re-analysis of the deposited data

Results flagged for a closer look

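Wars, the cytosolic tryptophanyl-tRNA synthetase, is not one of the 43 members, but among the members and pathway lists it was the one gene whose DENR KO effect differed between the treatments by the interaction test (limma, adjusted p = 6.9e-07). The difference of its log2 fold changes, IFNγ minus untreated, was −0.94 (95% interval −1.10 to −0.77). Each KO sample with IFNγ was below each control.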

How the results depend on the processing

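With IFNγ, 4 members were called lower and 0 higher in DENR KO cells. They were 2 and 0 with edgeR, 1 and 0 if the log2 fold change also had to exceed 0.5, and 2 to 3 lower and 0 to 1 higher on leaving out 1 sample, where a lone sample was assumed to vary like the others. Untreated, 1 was lower, against 0 if the change had to exceed 0.5 and 0 to 1 on leaving out 1 sample. Same-numbered samples were not paired by the labels (correlation of deviations 0.10 with IFNγ and 0.01 untreated). With a replicate block, 17 members were lower and 1 higher with IFNγ, 3 were lower untreated and none passed the interaction. The added calls with IFNγ were Atf4, Ddit4, Asns, Phgdh, Psph, Shmt2 and 8 of the 12 synthetase genes (Aars, Gars, Nars, Tars, Iars, Mars, Lars and Yars), and untreated Slc7a11 and Slc7a1. No other alternative moved these counts by over 1.5 times, and the interaction gave 0 members in each. Medians that changed sign were those of the stress genes untreated, from 0.010 to −0.017 when centred on the sample median, and several on leaving out 1 sample. These ranged from −0.122 to 0.014 for the stress genes with IFNγ, from −0.058 to 0.036 for them untreated, and from −0.081 to 0.001 for the transporters with IFNγ. For the interaction they ranged from −0.062 to 0.013 over the members, from −0.110 to 0.015 over the stress genes and from −0.052 to 0.025 over the synthetase group. Causes were not tested. Of members that did not pass, 8 of 39 with IFNγ, 17 of 42 untreated and 15 of 43 in the interaction had another sign in some setting. Depth limits Cth most.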
